A study of Mus musculus with 16 samples.

Results

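The genes that finish the digestion of dietary sugars at the gut surface and carry the products into the body were followed across mouse small intestine lacking Mfge8 or Cd36. They are 7 genes, taken by symbol from all 24420 features of both expression tables: the disaccharidases Sis, Mgam, Lct and Treh, and the sugar transporters Slc5a1, Slc2a5 and Slc2a2. All 7 were found in both tables and all 7 passed the filter on low values in each, among 9432 genes tested in the Mfge8 table and 9314 in the Cd36 table. Starch and disaccharides are split by enzymes anchored in the brush border, the dense microvilli on the luminal face of enterocytes, which are the absorptive cells of the epithelium. Glucose and galactose then enter the cell with sodium through SGLT1, fructose enters through GLUT5, and all these sugars can leave toward the blood through GLUT2. In mammals lactase is known for its high level in jejunum and its decline after weaning, and the sucrase and lactase genes are textbook targets of the transcription factors CDX2 and GATA4.

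RNA was measured by 3' tag sequencing, which reads each transcript near its polyadenylated end, so that gene length hardly enters a value and levels of different genes can be set side by side. All mice were of strain C57B6 per the labels. The groups were primary enterocytes of Mfge8 null mice (5 libraries) and of WT mice (4 libraries), and small intestinal tissue of Cd36 null mice (3 libraries) and of WT mice (4 libraries). MFGE8 is a secreted protein that bridges cells through integrins, and CD36 is a fatty acid receptor of the cell surface. The labels give neither age, sex, diet, the gut segment taken nor the null alleles, and they do not say that each library came from its own animal, so the p-values speak for the spread between libraries, part or all of which may be technical. Levels are normalised reads: the reads of a gene scaled by the size factor of the library.

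Enterocyte libraries held 1618369 to 2459812 reads, and intestine libraries 850297 to 1000694 reads. Mfge8 was at 3.45 ± 2.43 normalised reads in Mfge8 null enterocytes (SD, n = 5) and 14.8 ± 6.70 in WT enterocytes (SD, n = 4), a log2 change of -1.87 (limma adjusted p = 0.0362). Cd36 had 39 reads over the Cd36 null libraries and 450 over the WT intestine libraries, a ratio of 0.109 (95% counting interval 0.0768 to 0.152). Libraries of the same genotype differed far beyond counting error in the enterocyte experiment, with chi-square values per degree of freedom between 6.26 and 20.2, but only about as much as counting error in the intestine experiment, where the values were 0.987 to 1.117. The intestine libraries of each genotype were therefore counted as 1 sample, their values are given as ratios of pooled reads with intervals that cover counting error only, and no p-value is given for that comparison. The tissue labelled Intestine held the epithelial genes in quantity but almost none of the smooth muscle markers: the 6 smooth muscle markers summed to 3.19 to 9.95 normalised reads in Cd36 null libraries and 2.07 to 4.10 in WT libraries, with Acta2, Myh11 and Cnn1 at 0 in WT. In bulk RNA, fewer cells of a type and less RNA per cell cannot be told apart.

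The 250 bases before the RefSeq start site (GRCm38.p6, the same build as mm10) are shown for 4 of the genes, 5' to 3' on the gene's strand: Sis, whose level varied apart from the other genes over the enterocyte libraries, Mgam, which encodes its homologous partner enzyme, and Lct and Slc5a1, which varied closely together and moved furthest apart between the genotypes. Sis lies on the minus strand at chr3:72888557-72967863, and its printed stretch at chr3:72967864-72968113. Mgam lies on the plus strand at chr6:40628831-40769123, and its stretch at chr6:40628581-40628830. Lct lies on the minus strand at chr1:128284756-128328318, and its stretch at chr1:128328319-128328568. Slc5a1 lies on the plus strand at chr5:33104219-33162699, and its stretch at chr5:33103969-33104218. Capitals mark every match, on either strand, to 3 motifs: the CDX core TTTAT, the GATA site (AGATAA or TGATAA) and the E-box CACGTG.
Sis: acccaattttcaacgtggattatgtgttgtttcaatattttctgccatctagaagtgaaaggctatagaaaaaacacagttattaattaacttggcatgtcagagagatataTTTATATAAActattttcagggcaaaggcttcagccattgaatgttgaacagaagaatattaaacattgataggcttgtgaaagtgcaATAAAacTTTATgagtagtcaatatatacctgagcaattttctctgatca
Mgam: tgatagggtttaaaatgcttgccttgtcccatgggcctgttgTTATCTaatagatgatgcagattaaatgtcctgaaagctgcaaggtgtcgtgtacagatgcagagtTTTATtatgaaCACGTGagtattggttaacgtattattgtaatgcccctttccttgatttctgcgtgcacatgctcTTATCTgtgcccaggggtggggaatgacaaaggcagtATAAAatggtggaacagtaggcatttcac
Lct: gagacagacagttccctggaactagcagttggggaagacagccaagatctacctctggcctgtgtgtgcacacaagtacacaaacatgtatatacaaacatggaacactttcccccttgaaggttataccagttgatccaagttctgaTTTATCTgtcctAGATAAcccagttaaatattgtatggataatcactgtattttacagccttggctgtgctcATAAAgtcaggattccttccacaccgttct
Slc5a1: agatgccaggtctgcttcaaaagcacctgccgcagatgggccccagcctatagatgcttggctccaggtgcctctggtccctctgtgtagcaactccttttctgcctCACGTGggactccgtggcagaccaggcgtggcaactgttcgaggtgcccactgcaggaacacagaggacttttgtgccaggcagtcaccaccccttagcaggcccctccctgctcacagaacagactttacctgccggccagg

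The CDX core, a short motif present in 37.3% of 32851 RefSeq promoter stretches of the same length, stood in 3 of the 7: Sis held 4 matches, at -138, -133, -50 and -43, while Mgam held matches at -142 and -29 and Lct at -102 and -30. A GATA site stood in Mgam, Lct and Slc2a2, against 16.6% of stretches, and in Lct the CDX match at -102 and the GATA match at -101 overlap. The E-box, to which the sugar-sensing factor ChREBP (Mlxipl) binds in pairs, stood in Mgam at -131 and in Slc5a1 at -143, against 6.02% of stretches. None of the 3 motifs was found in the stretches of Treh and Slc2a5. These are matches of letters and not sites of binding.

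Mgam and Slc5a1 were among the most abundant messages of the epithelium. By mean level Mgam ranked 8th in Mfge8 null enterocytes and 10th in WT enterocytes among all genes, and Slc5a1 ranked 9th in null and 12th in WT. In the intestine table Slc5a1 was the highest of the 7, ranking 8th in Cd36 null and 9th in WT libraries, followed by Sis and Mgam within ranks 12 to 15. Together the 7 genes took 1.86% to 3.03% of all reads in Mfge8 null enterocytes and 1.47% to 2.33% in WT enterocytes, and 1.63% to 1.67% in Cd36 null intestine and 1.54% to 1.58% in WT intestine. In WT enterocytes the order by mean was Mgam, Slc5a1, Lct, Sis, Slc2a5, Treh and Slc2a2, and the ranges of neighbours in that order overlapped at every step except between Slc5a1 and Lct and between Sis and Slc2a5. In intestine GLUT2 stood above GLUT5 and lactase, and Sis stood close to Mgam. The tables were normalised separately and the sample types differ, so levels are not tested between them.

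**Figure D1:**
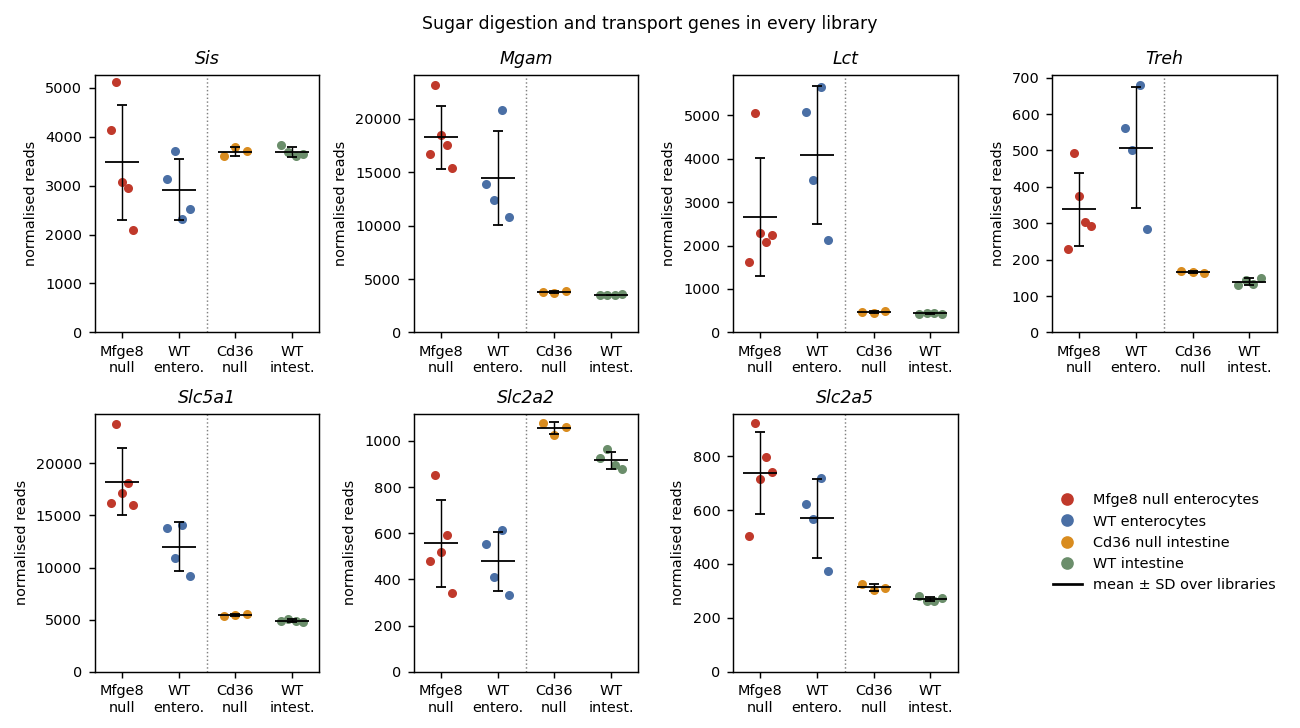
Normalised reads (linear axes from 0) of the 7 genes in every library, by group. Each point is 1 library, and the lines give mean ± SD over libraries. Only Slc5a1 has all Mfge8 null enterocyte libraries (15961 to 23811) above all WT enterocyte libraries (9191 to 14083). The points of each intestine group lie close together.

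No gene of the 7 passed the test across all genes between Mfge8 null and WT enterocytes (limma, adjusted p under 0.05), against 3.21% of the genes tested (303 of 9432). Without adjustment 2 of the 7, Slc5a1 and Treh, had a p under 0.05, against 15.9% of genes, and edgeR's quasi-likelihood test also called none of the 7 while DESeq2 called 1, Slc5a1. Of the 7 genes, 5 had a higher and 2 (Lct and Treh) a lower mean log2 level in null enterocytes, and their median log2 change was 0.21, beside a median of 0.00 over all genes tested. In 1 of the 7 the libraries of the genotypes did not overlap, against 6.42% of genes (3.35% higher and 3.07% lower in null).

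Sis encodes sucrase-isomaltase, which splits sucrose and the branch points of starch. It was at 4127, 5120, 3068, 2957 and 2092 normalised reads in the 5 Mfge8 null enterocyte libraries, against 3127, 3705, 2320 and 2515 in the 4 WT enterocyte libraries. The null libraries spread above and below the WT libraries. The mean was 3473 ± 1170 in null and 2917 ± 628 in WT enterocytes (SD), a log2 change of 0.21 (SE 0.23, limma adjusted p = 0.728), and 0.05 without null library 2 to 0.38 without null library 5.

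Mgam encodes maltase-glucoamylase, the homologous enzyme that frees glucose from the ends of starch chains. Its levels were 16760, 23178, 18456, 17573 and 15407 normalised reads in Mfge8 null enterocytes, against 13925, 12395, 20842 and 10859 in WT enterocytes. All null libraries stood above 3 of the 4 WT libraries, but WT library 3 exceeded all null libraries except number 2. The means were 18275 ± 2962 in null and 14505 ± 4406 in WT (SD), a log2 change of 0.36 (SE 0.24, limma adjusted p = 0.490), and 0.24 without WT library 4 to 0.55 without WT library 3. The genes of the pair thus differed in level, Mgam being 4.06 to 7.36 times Sis in Mfge8 null enterocytes and 3.35 to 8.99 times Sis in WT enterocytes, and the log2 ratio of Mgam to Sis differed by 0.15 between the genotypes (exact permutation test, p = 0.643).

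Lct, which encodes the milk sugar enzyme lactase, and Treh, which encodes trehalase, the enzyme for the disaccharide of fungi and insects, had lower means in Mfge8 null enterocytes. Lct was at 1619, 5046, 2299, 2078 and 2237 normalised reads in null libraries, against 5074, 3506, 5641 and 2134 in WT libraries. Treh was at 228, 493, 374, 303 and 294 in null libraries, against 562, 501, 681 and 284 in WT libraries. For both genes null library 2 lay inside the WT range and WT library 4 inside the null range, so that the groups overlapped. In Lct, null library 2 exceeded WT libraries 2 and 4. In Treh, all null libraries lay below WT libraries 1, 2 and 3, and the overlap rested on WT library 4. Lct averaged 2656 ± 1362 in null and 4089 ± 1585 in WT enterocytes (SD), a log2 change of -0.65 (SE 0.31, limma adjusted p = 0.321). Treh averaged 338 ± 101 in null and 507 ± 167 in WT enterocytes (SD), a log2 change of -0.56 (SE 0.24, limma adjusted p = 0.262). Leaving out WT library 4 gave Treh a log2 change of -0.82 with a limma adjusted p of 0.0414, over a range of adjusted p from 0.0414 to 0.504 in all 22 alternative settings.

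Slc5a1 encodes SGLT1, the sodium-coupled carrier of glucose and galactose in the brush border. It was at 16179, 23811, 17127, 18081 and 15961 normalised reads in Mfge8 null enterocytes, against 13831, 10940, 14083 and 9191 in WT enterocytes. Every null library stood above every WT library. The mean was 18232 ± 3230 in null and 12011 ± 2360 in WT enterocytes (SD), with a log2 change of 0.61 (SE 0.22), which is 1.52 fold. The 2-sided exact permutation test of this gene alone gave p = 0.00794, the smallest that 126 splits allow, but adjusted over all genes the limma p was 0.168. DESeq2 gave an adjusted p of 0.0198, and over 22 alternative settings the adjusted p ran from 0.0198 to 0.454 with a log2 change of 0.49 to 0.70.

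Slc2a5 encodes GLUT5, the fructose carrier of the brush border. Its levels were 505, 924, 715, 796 and 741 normalised reads in Mfge8 null enterocytes, against 621, 567, 719 and 372 in WT enterocytes. Null library 1 lay below 3 WT libraries, and null libraries 2, 4 and 5 above all of them. Its log2 change was 0.38 (SE 0.20, limma adjusted p = 0.370), and 0.19 without WT library 4 to 0.51 without null library 1. Slc2a2 encodes GLUT2, the low-affinity carrier through which glucose and fructose leave toward the blood. It was at 478, 853, 517, 594 and 343 normalised reads in null enterocytes, against 553, 410, 615 and 333 in WT enterocytes, with a log2 change of 0.20 (SE 0.23, limma adjusted p = 0.742). The lowest libraries of the genotypes were close, and only null library 2 exceeded the WT range. Leaving out 1 library gave Slc2a2 a log2 change of 0.03 (without null library 2) to 0.36 (without null library 5).

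**Figure D2:**
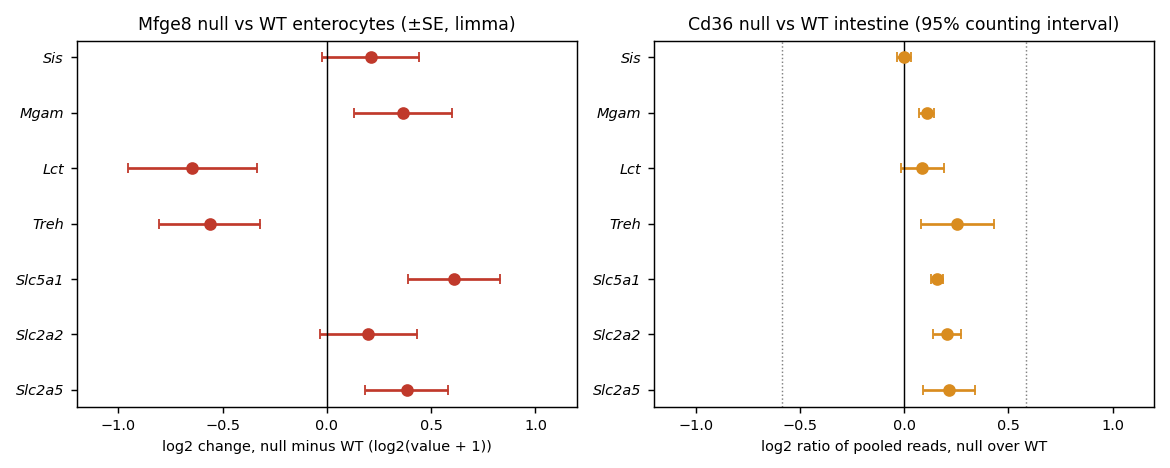
Difference between null and WT for each gene on a log2 axis. Left, Mfge8 null minus WT enterocytes with its standard error (limma). Right, the ratio of pooled reads of Cd36 null over WT intestine with its 95% counting interval, dotted lines at 1.5 fold. Lct and Treh lie below 0 on the left (-0.65 and -0.56) and Slc5a1 highest (0.61). On the right all 7 ratios lie within the dotted lines.

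A ratio between 2 genes of the same library does not depend on its size factor. Of 4 ratios between genes of related roles, none passed after adjustment over the 4. The ratio of Slc2a2 to Slc5a1, exit carrier to entry carrier, was 0.0215 to 0.0358 in Mfge8 null enterocytes and 0.0362 to 0.0437 in WT enterocytes, without overlap, a log2 difference of -0.41 (exact permutation test, p = 0.0159, adjusted p = 0.0635). Lct to Sis was 0.392 to 1.07 in null and 0.849 to 2.43 in WT enterocytes, a log2 difference of -0.86 (exact permutation test, p = 0.0873, adjusted p = 0.175). Slc2a5 to Slc5a1 differed by -0.23 on the log2 scale (exact permutation test, p = 0.143, adjusted p = 0.190).

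All 21 ratios among the 7 genes were then taken, a choice made after the values had been seen. None passed after adjustment over the 21 by the exact permutation test, where the smallest adjusted p was 0.0556. With 126 splits this test allows no p below 0.00794, at which Mgam to Treh, Treh to Slc5a1 and Treh to Slc2a5 stood. A ratio at that floor cannot pass alone after adjustment over 21, so the test had little room to call any. In 6 of the 21 the libraries of the genotypes did not overlap, against 7.75% of the 66017 ratios of one of these genes to another gene tested. The 21 ratios share 7 genes, and each of the 6 holds Lct, Treh or Slc5a1, so the 6 are not separate results. Lactase and trehalase were lower against SGLT1 in every null library than in any WT library. The ratio of Lct to Slc5a1 was 0.100, 0.212, 0.134, 0.115 and 0.140 in Mfge8 null enterocytes, against 0.367, 0.320, 0.401 and 0.232 in WT enterocytes, a log2 difference of -1.25. The ratio of Treh to Slc5a1 was 0.0141, 0.0207, 0.0218, 0.0168 and 0.0184 in null enterocytes, against 0.0407, 0.0458, 0.0484 and 0.0309 in WT enterocytes, a log2 difference of -1.17. The log2 difference of a ratio is the difference of the log2 changes of its genes, so these values restate the changes of Lct, Treh and Slc5a1 given above. The same enzymes were also lower against GLUT5 without overlap, by log2 differences of -1.03 for Lct and -0.94 for Treh, and Mgam was higher against Treh by 0.93. The ratio of Lct to Treh differed by only -0.08.

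**Figure D3:**
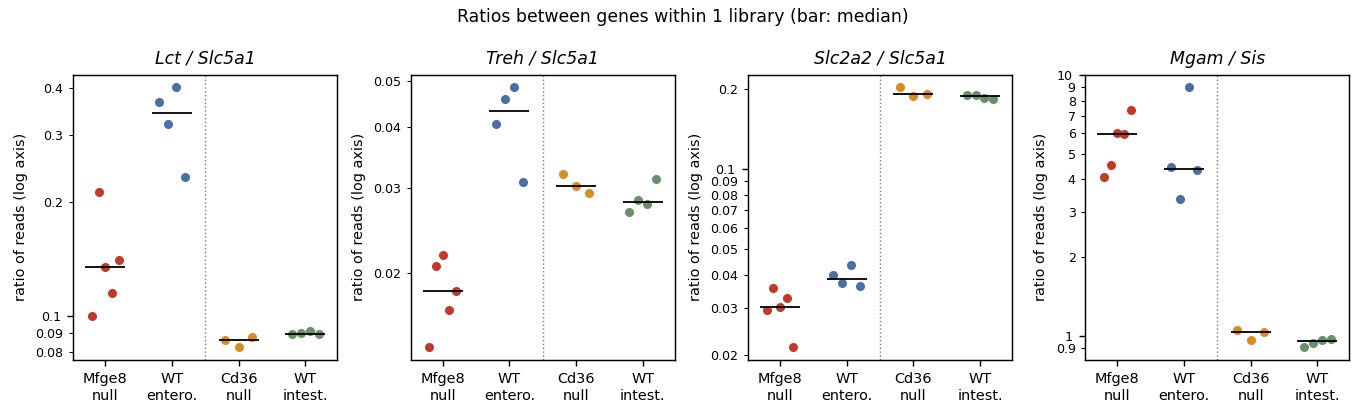
Ratios of normalised reads between 2 genes within each library, on log axes, by group, with a bar at the median. Points are libraries. Mfge8 null enterocytes lie below WT enterocytes in Lct to Slc5a1, Treh to Slc5a1 and Slc2a2 to Slc5a1, and overlap with them in Mgam to Sis. In intestine Mgam to Sis is close to 1 (0.909 to 1.056).

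Enterocyte libraries of the same genotype differed from each other in these genes, lactase above all. Within Mfge8 null enterocytes the coefficient of variation was 51.3% for Lct, 33.9% for Slc2a2, 33.7% for Sis, 29.8% for Treh, 20.7% for Slc2a5, 17.7% for Slc5a1 and 16.2% for Mgam, beside a median of 16.2% over the 1698 genes with a mean of at least 200. Within WT enterocytes it was 19.6% for Slc5a1 to 38.8% for Lct, beside a median of 15.6% over 1644 genes. After the mean of each genotype was removed, 6 of the 7 genes went up and down together over the 9 libraries. Null library 2 was high and WT library 4 low for each of these 6 genes. Sis shared the high level in null library 2 and the low level in WT library 4, and was low with 5 of the 6 in null library 5, but 3 libraries went another way: it was high in null library 1 and WT library 2, where most of the others were low, and low in WT library 3, where all the others were high.

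Of the 15 pairs among the 6 genes without Sis, 14 were correlated after Benjamini-Hochberg adjustment over all 21 pairs (permutation test with 100000 resamples), with Pearson r of 0.69 to 0.95 and a median of 0.85. Of the 6 pairs with Sis none was, with r of 0.04 to 0.53. Without WT library 3, in which Sis was low, 2 of the 6 were, with r of 0.21 to 0.75 over the 6. Without null library 2 none was, with r of -0.31 to 0.22. When the 2 libraries farthest from the median of Sis were left out, r was -0.44 to -0.18 over the 6. As background, the median r of each of the 7 genes with the other genes tested lay near 0, and 3.68% (Sis) to 8.59% (Treh) of those genes had an r above 0.7 with it. Lactase and SGLT1 gave r = 0.95 and rho = 0.87 (permutation adjusted p = 0.00175 and 0.0118), and r = 0.88 without the 2 libraries farthest from the median. Lactase and trehalase gave r = 0.95 and rho = 0.98 (permutation adjusted p = 0.00175 and 0.00115), and r = 0.92 without 2 libraries. SGLT1 and GLUT2, the entry and exit carriers of glucose, gave r = 0.93 and rho = 0.97 (permutation adjusted p = 0.00175 and 0.00115), and r = 0.84 without 2 libraries. The number of pairs past adjustment rests on the libraries at the ends: it was 9 without null library 2, 7 without WT library 4 and 5 when genotype means were not removed. Within a genotype 5 and 4 libraries are too few for a correlation.

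**Figure D4:**
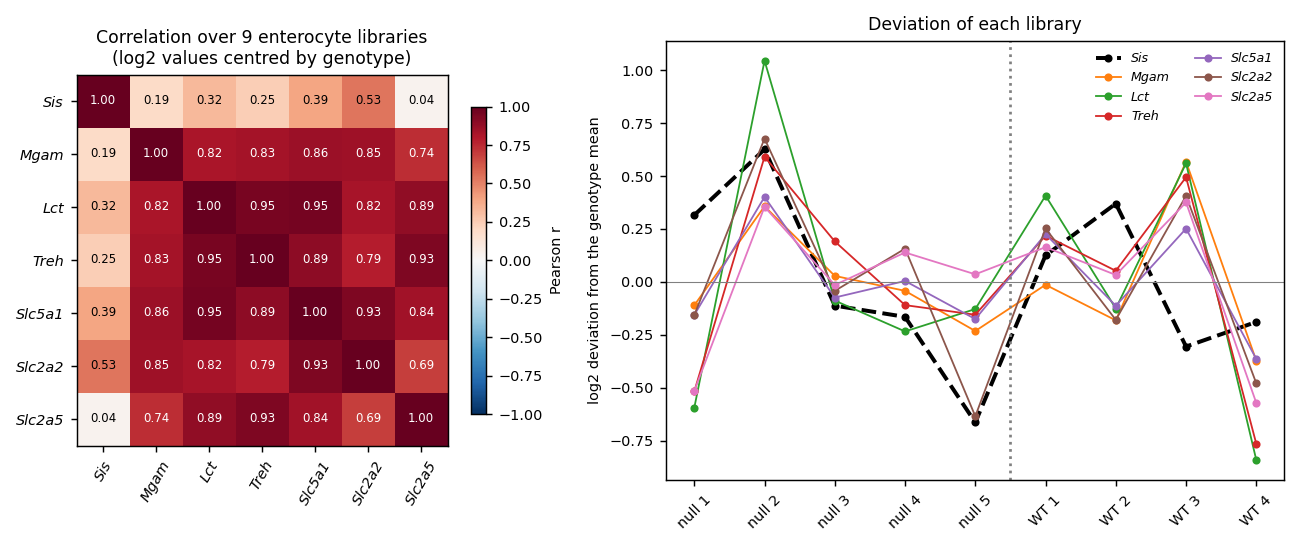
Left, Pearson r between each pair of genes over the 9 enterocyte libraries, on log2 values centred by genotype (colour from -1 to 1). Right, the log2 deviation of each library from the mean of its genotype, with Sis as a dashed black line. The 6 other genes move together, with r of 0.69 to 0.95, and Sis has r of 0.04 to 0.53 with them.

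The levels of the genes also moved with markers of cell types over the same centred libraries, in a family of 70 relations to 10 measures. The 10 enterocyte markers, none of them among the 7 genes, gave r = 0.98 and rho = 0.98 with Slc2a5 (permutation adjusted p = 0.0007 and 0.00175; r = 0.97 without 2 libraries), and r between 0.69 and 0.94 with the other genes except Sis, which had r = 0.07. The 8 T cell markers gave r = -0.93 and rho = -1 with Mgam (permutation adjusted p = 0.0007 and 0.0014; r = -0.91 without 2 libraries), and r between -0.85 and -0.73 with the others except Sis at -0.15. Past adjustment were 4 genes for the enterocyte markers (Lct, Treh, Slc5a1 and Slc2a5) and 4 for the T cell markers (Mgam, Treh, Slc5a1 and Slc2a2). Total reads, size factor, goblet, Paneth, villus tip and proliferation markers gave none. The brush border scaffold genes and the brush border peptidases and carriers of their products also gave none. Sis came near the threshold for goblet markers (r = -0.80, rho = -0.68, permutation adjusted p = 0.0524 and 0.147). It did so too for total reads (r = -0.73, rho = -0.80, permutation adjusted p = 0.0721 and 0.0629). The other genes had r of -0.79 to -0.40 with goblet markers and -0.16 to 0.36 with total reads. Sis was not alone near the threshold: Slc2a2 with goblet markers had r = -0.79 (permutation adjusted p = 0.0562). At a permutation adjusted p of 0.0524 by r also stood Mgam and Treh with the brush border scaffold genes (r = 0.79 and 0.82). So did Lct with T cell markers (r = -0.80) and Slc2a2 with proliferation markers (r = -0.82). The summed T cell markers were 3162 to 7391 normalised reads in Mfge8 null enterocytes and 1156 to 3398 in WT enterocytes, with 0 of 8 markers past the test and a median log2 change of 0.96. The summed goblet markers were 32736 to 104690 in null and 49175 to 81668 in WT enterocytes. The part of these other cells in the results on the 7 genes was not tested.

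The small intestine changes along its length, and lactase is a textbook gene of the jejunum. A score of 3 proximal markers (Onecut2, Gata4 and Fabp1) minus 5 ileal markers (Fabp6, Slc10a2, Slc51a, Slc51b and Cubn) ran from -2.58 to 1.38 in Mfge8 null enterocytes and from 0.06 to 1.75 in WT enterocytes. It is the difference of mean standardised log2 levels, and on it the null libraries reached further to the ileal side. The markers did not all go that way. Log2 changes in null were -1.23 (Onecut2), -0.50 (Fabp1) and 0.25 (Gata4) for the proximal ones. They were 0.57 (Fabp6), 1.11 (Slc10a2), 0.58 (Slc51a), 0.81 (Slc51b) and -1.46 (Cubn) for the ileal ones. Onecut2 and Slc51b passed the limma test, so the score does not separate genotype from gut position. None of the 7 genes was correlated with the score past adjustment over the 7. The largest r was 0.57, for Slc2a2, with rho = 0.50 (permutation adjusted p = 0.446 and 0.580; r = 0.37 without 2 libraries). With the score as a covariate the log2 change was 0.70 for Slc5a1 (limma adjusted p = 0.230), -0.57 for Lct (limma adjusted p = 0.550) and -0.53 for Treh (limma adjusted p = 0.457).

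For each gene the 3 genes most like it by Pearson r over the 9 centred enterocyte libraries were taken as a description. Closest to Slc5a1 were Gucy2c, the receptor of guanylin (r = 0.99), Slc5a11, a sodium-coupled inositol carrier of the same family (0.98), and Hexa, a lysosomal hexosaminidase (0.98). Slc5a11 also led the list of Lct (0.98), followed by Ppap2a (0.98) and Serinc3 (0.98). Treh was closest to Nat8 (0.98), Cyp4v3 (0.98) and Os9 (0.97), and Mgam to Surf4 (0.98), Tex261 (0.98) and Tex264 (0.97). The nearest to Slc2a5 were Ehd1 (0.98), Degs2 (0.98) and Kdelr1 (0.98), and to Slc2a2 Cask (0.98), Aig1 (0.97) and Rtn4ip1 (0.97). Sis was closest to Slc35f5 (0.96), Hccs (0.96) and Dpyd (0.94). Slc5a11 was the only gene to stand in the lists of different genes, those of Lct and Slc5a1. A list that shared no gene with the others was therefore not particular to Sis.

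In the intestine the comparison of Cd36 null with WT tissue gave small differences, 6 of the 7 ratios lying above 1. None of the 7 was past 1.5 fold, against 10.8% of genes (1004 of 9314, with 4.4% higher and 6.38% lower in null), and the median log2 ratio of the 7 was 0.16 beside -0.0044 over all genes tested. A call past 1.5 fold takes no account of counting error, so genes with few reads can pass by it. The 7 genes ranked between 8 and 1105 by mean level in null, so the share of genes called is not a like background for them. The libraries of the genotypes did not overlap in 5 of the 7, against 16.5% of genes, and all 5 were higher in null, against 8.61% of genes higher and 7.91% lower. With libraries this alike, overlap also depends on how many reads a gene has. By mean level in null the 5 ranked 8 (Slc5a1), 13 (Mgam), 77 (Slc2a2), 503 (Slc2a5) and 1105 (Treh). The share over all genes, most of them lower, is thus not a like background for them. Since libraries of the same genotype repeat each other to about counting error, the comparison is one of 1 pooled sample with another, and the spread between mice is not known. Markers of gut position also differed. Of 6 ileal markers 2 were past 1.5 fold lower in null, Fabp6 (68.8, against 278 in WT) and Slc10a2 (9.28, against 14.4). In the other direction 1 was higher, Fgf15 (24.6, against 7.86), and 0 of 4 proximal markers were past it. The part of gut position in the ratios of the 7 genes was not tested.

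SGLT1 and GLUT2 had the narrowest intervals above 1 among the carriers. Slc5a1 was at 5314, 5479 and 5558 normalised reads in Cd36 null intestine, against 4856, 5090, 4824 and 4784 in WT intestine, a ratio of 1.11 (95% counting interval 1.09 to 1.14). Slc2a2 was at 1076, 1027 and 1061 in null, against 925, 964, 894 and 877 in WT, a ratio of 1.15 (1.10 to 1.21). Each null library exceeded each WT library in both. Slc2a5 was at 326, 302 and 311 in Cd36 null intestine, against 280, 263, 263 and 273 in WT intestine, a ratio of 1.16 (1.06 to 1.27).

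Among the disaccharidases Treh had the highest ratio and the fewest reads. It was at 170, 166 and 163 normalised reads in Cd36 null intestine, against 130, 145, 134 and 150 in WT intestine, a ratio of 1.19 (95% counting interval 1.06 to 1.35). Mgam was at 3806, 3654 and 3838 in null, against 3480, 3472, 3487 and 3561 in WT, a ratio of 1.08 (1.05 to 1.10). Neither gene overlapped between the genotypes. Sis was at 3604, 3786 and 3703 in Cd36 null intestine, against 3828, 3688, 3602 and 3648 in WT intestine, a ratio of 0.9997 (0.975 to 1.02). Lct was at 458, 454 and 488 in null, against 433, 457, 440 and 428 in WT, a ratio of 1.06 (0.990 to 1.14). For these 2 genes the libraries overlapped and the intervals held 1, so that a difference was not detectable at this depth. As a result the ratio of Mgam to Sis was 0.965 to 1.056 in null and 0.909 to 0.976 in WT intestine.

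Other genes of sugar handling were read from a list of 40, of which 39 were in the tables. In the Mfge8 comparison 2 of the 32 tested rose and 1 fell, with a median log2 change of -0.02, beside 3.21% of all genes called (1.58% higher and 1.63% lower). Pklr, the pyruvate kinase of liver and gut glycolysis, rose to 171 ± 17.7 normalised reads in null enterocytes, against 103 ± 7.31 in WT enterocytes (log2 change 0.73, limma adjusted p = 0.00994). Fbp1, an enzyme of gluconeogenesis, fell to 16.9 ± 3.99, against 53.8 ± 22.2 in WT (-1.54, limma adjusted p = 0.0103). In the Cd36 comparison 3 of 30 were past 1.5 fold, a share near the 10.8% of all genes, and all 3 were higher in null. They were the phosphofructokinase gene Pfkl (10.9 normalised reads in null and 5.32 in WT intestine, with a 95% counting interval of the ratio of 1.15 to 3.71), the gluconeogenic Pck1 (457 in null and 273 in WT) and the glucose carrier Slc2a1 (39.7 in null and 25.3 in WT). Khk, the kinase of the first step of fructose use, did not pass in either comparison and was at 748 ± 139 in Mfge8 null and 982 ± 248 in WT enterocytes (limma adjusted p = 0.345).

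Of 18 transcription factors known to act on sugar genes or on gut identity, 1 passed in the Mfge8 comparison, beside 3.21% of all genes: Onecut2, a factor of the proximal intestine, fell to 72.9 ± 43.3 normalised reads in null enterocytes, against 153 ± 23.9 in WT enterocytes (log2 change -1.23, limma adjusted p = 0.0401). Cdx2 was at 61.1 ± 16.0 in null and 69.1 ± 14.1 in WT enterocytes. In the Cd36 comparison 2 of the 18 were past 1.5 fold, near the 10.8% of all genes, both lower in null (6.38% of all genes), among them Bcl11b (66.9 in null and 104 in WT intestine). Bcl11b is also a T cell gene, and the 8 T cell markers summed to 603 to 623 normalised reads in Cd36 null and 704 to 923 in WT intestine. Their part in its difference was not tested. The brush border scaffold gave no call among 15 genes in either comparison. Among 14 tested brush border peptidases and carriers of their products Dpp4 rose in Mfge8 null enterocytes, at 2814 ± 532 against 1724 ± 412 in WT (log2 change 0.72, limma adjusted p = 0.0465), and Tmprss15, the enteropeptidase that activates trypsinogen, was past 1.5 fold in Cd36 null intestine (36.5 normalised reads, against 12.7 in WT), 1 of 14 tested. A further list held genes of ion transport linked to the sodium gradient on which SGLT1 runs. Of these the potassium channel gene Kcnq1 rose in Mfge8 null enterocytes (18.1 ± 2.82, against 7.30 ± 1.95 in WT, limma adjusted p = 0.0342), 1 of 7 tested. In the Cd36 comparison 1 of 8 was past 1.5 fold, the sodium-proton exchanger gene Slc9a3, with 17 reads in null and 11 in WT intestine, and its 95% counting interval of 0.862 to 4.61 held a ratio of 1.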

How the data were processed

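Small intestinal RNA of 16 mouse libraries was analysed, with groups and replicate numbers from the labels. Per the labels' protocols, the kit read 3' tags in forward direction and added molecular identifiers (UMIs). Per the submitters' processing notes, the tools included DESeq2 2.11.40, HTSeq 0.91, HISAT2 2.1.0 and Trimmomatic 0.38.1, and the genome build was mm10. Whether UMIs were collapsed, and with which strand setting reads were counted, is not given in the sources used here, so overlapping genes cannot be told apart and intervals cover counting error only. The values the authors deposited are a normalised signal, each library's read counts over its size factor (0.855 to 1.28 and 0.939 to 1.105 in the 2 tables). Whole reads were recovered for 100% of values to within 1e-06. That step is less certain for enterocyte libraries WT 4 and null 3, with size factors near 1.

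In the Mfge8 table, genes that reached a value of 5 in 4 or more libraries were tested on log2(value + 1) with limma-trend (limma 3.58.1, R 4.3.3), 2-sided, with Benjamini-Hochberg adjustment over all genes and a threshold of 0.05. Log2 changes on this scale understate the change of low genes. In the Cd36 table (a value of 5 in 3 or more libraries), libraries were first set against each other in pairs with a chi-square test over genes of 20 or more reads. Since pairs of the same genotype agreed at about sampling noise (5 of 9 still had p under 0.05), reads were pooled per genotype and called when past 1.5 fold. A fold against 0 reads used 3 reads over the group. Single genes and ratios were tested by exact permutation over libraries, and correlations by 100000 permutations of genotype-centred values (SciPy 1.17.1). edgeR 4.0.16 and DESeq2 1.42.0 on recovered reads were alternatives. The limma procedure was tested on simulated data. Promoters and positions came from RefSeq, matched by symbol for all 7 genes. Motif positions count from the first matching base to the start site.

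The 7 genes, the lists and the tests were chosen with earlier results of these data known. Named genes were the 7 genes, the 3 most like each, the targeted genes, and of each list up to 4 genes past the threshold. Khk, Cdx2 and the changes of single regional markers were added after their values had been seen. Some genes counted in the lists are not reported here by name.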

Additional observations from a re-analysis of the deposited data

Results flagged for a closer look

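Within 21 groups of 4 or 5 libraries (7 genes in 3 groups), 3 had 1 library set apart from the rest, measured by its gap to the nearest library as a share of the group's range. Chance sets about 1 in 20 groups apart in this way. Lct in Mfge8 null enterocytes had library 2 at 5046 normalised reads, while the other 4 libraries lay between 1619 and 2299. Slc5a1 in the same library stood at 23811, while the other 4 lay between 15961 and 18081. Without that library the log2 change between Mfge8 null and WT enterocytes was -0.91 for Lct (limma adjusted p = 0.0617) and 0.51 for Slc5a1 (limma adjusted p = 0.254). Mgam in WT intestine had library 4 at 3561, against 3472 to 3487 in the other 3.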

How the results depend on the processing

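Of the 4 tested ratios in enterocytes 1 reversed: the log2 ratio of Mgam to Sis was -0.029 without WT replicate 2, in a range of -0.029 to 0.45 with a library left out. Of all genes, 303 passed in the Mfge8 comparison, 150 with the regional score as covariate, 317 by edgeR on recovered reads (255 without the 2 libraries of size factor near 1), 430 by DESeq2, and 135 to 387 when 1 library was left out, the lowest without WT library 1 (169 without WT library 2, 185 without null library 3, 200 without null library 5). The fit without null library 5 stands under 2 names among the 22 alternative settings of each gene. Of the 7 genes 0 passed in the main test, 1 by DESeq2 (Slc5a1) and 0 to 1 with a library left out (Treh, without WT library 4). With values scaled to library totals the 322 genes called split into 110 higher and 212 lower in null, against 149 and 154 with the authors' size factors. Correlated pairs were 14, 5 without genotype centring and 7 to 15 with a library left out, 9 without null library 2. In the Cd36 comparison 1004 genes were past 1.5 fold, 4905 with no filter, 288 past 2 fold, and 1059 to 1177 with a library left out. The log2 ratio of Sis in that comparison lay on either side of 0, at -0.016 to 0.018 with a library left out. The filter and the fold threshold cannot change a gene's own pooled ratio, so they say nothing on its stability.

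Replicate numbers of the labels did not pair the libraries: same-numbered enterocyte libraries had correlations of -0.12, -0.07, 0.21 and 0.09, and intestine libraries of -0.01 to 0.00. With the number as a replicate block 233 genes and 0 of the 7 passed in enterocytes. With the intestine libraries taken as separate samples, limma called 699 genes and 4 of the 7 (Mgam, Slc5a1, Slc2a2 and Slc2a5), edgeR 754 and 4, and limma with the replicate block 650 and 5. These p-values rest on libraries that repeat each other. The alternatives on correlations, on all 21 ratios, on the 2 libraries of size factor near 1 and on the most ileal libraries were chosen after seeing the data.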
